A study of Mus musculus with 6 samples.

Results

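The ovary and the testis of newborn mice were compared gene by gene on 1 Affymetrix array each. The mice were C57BL/6, an inbred laboratory strain, with no transgene or treatment given in the labels, and both gonads were taken on day 1 after birth. The study set out to look for genes that part chromosomes in the first meiotic division, and the comparison took 2 of the 6 arrays of the series. The other 4 hold ovary and testis at 15.5 days postcoitum (fetal) and at 10 weeks of age (adult), again with 1 array per group, and they are used here to follow the same genes at other ages. The number of animals behind an array is not stated in the sources used here. All 18193 genes that the arrays measured with a probe set of 1 gene symbol were included. A gene's value is the signal of its brightest probe set, scaled so that all arrays share a common trimmed mean, and signals under 75.3, the median of all scaled signals, were raised to that floor. Since each group is 1 array, differences cannot be set against replicates, and no test, standard deviation or standard error is given. A gene was called higher or lower in neonatal ovary when the ratio of ovary over testis was at least 4 in that direction. A ratio against a gonad at the floor is a bound, written as at least N-fold. The gene lists used below were written with earlier results of these data known, so their shares of called genes describe these arrays only.

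At birth the mouse ovary is passing into the primordial follicle stage. Oocytes that have gone through meiotic prophase and paused are separated from their germ cell nests, and each becomes enclosed by a few flat pre-granulosa cells. In that period oocytes switch on a set of transcription factors, the genes of the zona pellucida (the glycoprotein coat of the egg), and proteins stored for the early embryo. The newborn testis has a different layout. Its germ cells, the prospermatogonia, lie in cords built by Sertoli cells, which secrete anti-Müllerian hormone and inhibins and signal through Desert hedgehog to the Leydig cells between the cords, and these make androgens.

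A basic helix-loop-helix factor of oocytes, FIGLA, is known in the mouse to act through short elements of the sequence CANNTG, called E-boxes, in zona pellucida promoters. The promoters of 4 genes that were at the floor in neonatal testis and well above it in neonatal ovary are therefore shown, from 250 bases before to 50 bases after the start of transcription (RefSeq, assembly GRCm38.p6). They are written 5′ to 3′ in the direction of transcription, and capitals mark each CANNTG, a pattern that reads the same on both strands.
Zp3, chr5:135979855-135980154, plus strand: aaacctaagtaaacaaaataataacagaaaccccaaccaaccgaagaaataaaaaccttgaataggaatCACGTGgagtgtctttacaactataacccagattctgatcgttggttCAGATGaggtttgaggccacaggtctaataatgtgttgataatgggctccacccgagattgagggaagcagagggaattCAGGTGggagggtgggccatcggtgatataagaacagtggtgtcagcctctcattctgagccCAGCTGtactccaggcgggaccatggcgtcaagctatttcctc
Figla, chr6:86016941-86017240, plus strand: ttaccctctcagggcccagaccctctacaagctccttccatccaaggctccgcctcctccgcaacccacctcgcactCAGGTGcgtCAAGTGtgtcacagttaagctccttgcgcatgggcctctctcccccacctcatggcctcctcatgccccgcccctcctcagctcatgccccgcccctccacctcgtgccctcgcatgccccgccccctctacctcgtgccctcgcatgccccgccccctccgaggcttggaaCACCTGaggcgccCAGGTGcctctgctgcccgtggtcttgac
Nobox, chr6:43309505-43309804, minus strand: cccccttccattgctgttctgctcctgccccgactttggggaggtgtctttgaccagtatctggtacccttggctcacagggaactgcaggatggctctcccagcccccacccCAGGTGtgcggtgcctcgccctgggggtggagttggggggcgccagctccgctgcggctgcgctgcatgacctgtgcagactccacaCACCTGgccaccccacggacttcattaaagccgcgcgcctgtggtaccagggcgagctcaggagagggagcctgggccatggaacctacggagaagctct
Padi6, chr4:140742594-140742893, minus strand: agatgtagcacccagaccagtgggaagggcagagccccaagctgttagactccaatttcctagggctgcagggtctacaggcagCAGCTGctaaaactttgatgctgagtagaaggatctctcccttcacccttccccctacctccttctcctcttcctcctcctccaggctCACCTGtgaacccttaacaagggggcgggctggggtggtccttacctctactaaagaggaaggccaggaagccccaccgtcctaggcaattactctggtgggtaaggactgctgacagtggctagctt
Zp3 encodes a zona pellucida protein, Figla and Nobox encode oocyte transcription factors, and Padi6 encodes a protein of the egg's cytoplasmic lattices.

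The pattern CANNTG occurred in 72.3% of all 32851 RefSeq promoter windows of this length, so its presence in a window is common. Of the 20 oocyte list genes called higher in neonatal ovary, 13 had a promoter in the table, with 17 windows, and 15 windows (88.2%) held CANNTG. Of the 23 Sertoli list genes called lower, 13 had a promoter, with 16 windows, and 12 windows (75%) held it. CACCTG, searched on both strands and itself a case of CANNTG, occurred in 20.2% of all windows, in 7 of the 17 oocyte windows (41.2%) and in 5 of the 16 Sertoli windows (31.2%). This element was picked with the promoters in view, and a match is a description of the letters and not of a bound site.

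Of the 18193 genes, 254 (1.4%) were called higher in neonatal ovary and 175 (0.962%) were called lower. Among the genes called higher, 158 lay above the floor in both gonads and 96 were at the floor in testis. Among those called lower, 120 lay above the floor in both gonads and 55 were at the floor in ovary. Most of the transcriptome did not separate the gonads. Log2 signals of the 11448 genes above the floor in both correlated with r = 0.898 across genes, which are not independent replicates, and 5074 genes were at the floor in both. A ratio of 2 or more was reached by 1055 genes in the direction of ovary and by 692 in the direction of testis, and a ratio of 16 or more by 23 in each direction. Ratios of 64 or more were seen for 2 genes higher in ovary and for 5 genes lower in it.

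The error of a ratio could be judged only from genes measured by several probe sets. Over 4502 such pairs of probe sets, all above the floor in both gonads, the log2 ratio had a robust SD of 0.27. This technical spread leaves out errors that the probe sets of an array share, such as RNA quality and labelling. It also leaves out the variation between animals. Genes next to the limit of 4 therefore differ by less than this spread. On the side of ovary, Cdkn1c (4.01-fold), Galnt16 (4.01-fold) and Sohlh1 (4.03-fold) were just inside the limit, and Wnk4 (3.995-fold), Hdc and Fcgbp (both 3.99-fold) were just outside it. On the side of testis, Trim47 (4.01-fold), Dppa4 and Scarb1 (both 4.02-fold) were inside, and Myef2, Serinc5 (both 3.97-fold) and Slc30a2 (3.96-fold) were outside.

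The arrays were multiplied by 1.26 for neonatal ovary and 1.08 for neonatal testis, and 12661 genes in ovary and 11906 in testis then lay above the floor. The ratio of 3' to 5' signal of the control gene Gapdh, a measure of RNA integrity, was 3.12 in neonatal ovary and 1.43 in neonatal testis, and that of Actb was 3.28 in ovary and 2.91 in testis. Its part in the results was not tested. The split between directions depended on the scaling. Of the genes called, 59.2% were higher in neonatal ovary, against 46.4% with the signals as deposited, 48.7% with arrays set to the same median and 80.1% with arrays set to 9 hybridization control probe sets. For genes above the floor in both gonads the log2 ratio had a median of 0.04, and it was -0.17, -0.14 and 0.49 under these other scalings. Over all genes the median was 0. Sex-linked genes were as labelled. Xist, the RNA that silences an X chromosome in female cells, had a signal of 1950 in neonatal ovary and 79.1 in neonatal testis. Uba1y, a Y-linked gene, was at the floor in ovary and had 1190 in testis.

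**Figure D1:**
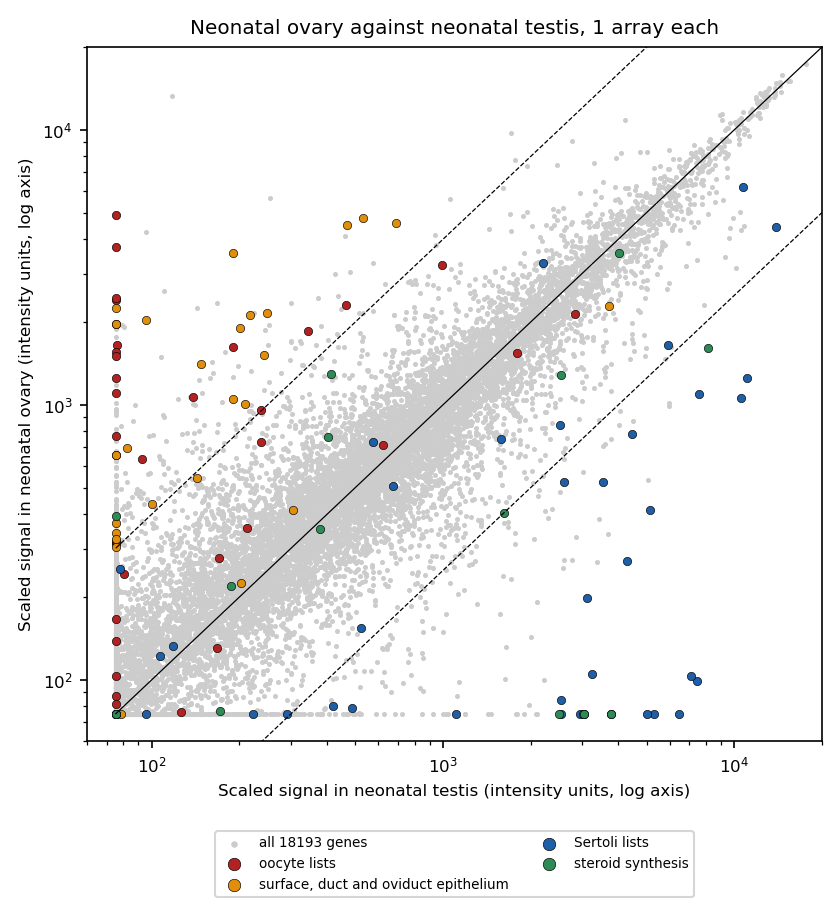
Scaled signal of each of 18193 genes in neonatal ovary (vertical, log axis, intensity units) against neonatal testis (horizontal, log axis), 1 array each. The solid line marks equal signals and dashed lines a ratio of 4. Oocyte and epithelium list genes lie along the left edge and above the upper line, with 20 of 39 and 22 of 29 called higher, and 23 of 41 Sertoli list genes lie below the lower line.

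Transcription factors of the oocyte stood among the genes furthest from equality. The list also holds the RNA-binding protein Ybx2. Of its 10 measured genes 6, Ybx2 among them, were called higher in neonatal ovary and 0 lower. The median log2 ratio was 2.05 against 0 over all genes. With the signals as deposited or with the same median 4 were called higher. With quantile normalization 5 were, and with the floor at the 75th percentile 2. Figla had a signal of 2405 in neonatal ovary and was at the floor in neonatal testis, at least 31.9-fold higher. Nobox, a homeobox factor required for the growth of follicles, had 1556 in ovary and was at the floor in testis, at least 20.7-fold higher. Lhx8, a LIM homeobox factor that acts beside it, had 1254 in ovary and was at the floor in testis, at least 16.6-fold higher. These factors were seen in ovary alone at this floor. Trp63, the guardian of genome integrity in resting oocytes, had 320 in ovary and was at the floor in testis. Ybx2, which binds and stores messenger RNA in germ cells, had 635 in ovary and 92.5 in testis, 6.86-fold higher. Sohlh1 and Sohlh2 are a pair of helix-loop-helix factors used by germ cells of both sexes. Sohlh1 had 954 in ovary and 237 in testis, at the limit with 4.03-fold, and Sohlh2 had 355 in ovary and 212 in testis and was not called. Foxo3, which holds primordial follicles dormant, had 1540 in ovary and 1801 in testis, and Taf4b had 131 in ovary and 167 in testis. In whole gonads, fewer cells of a type and less RNA per cell cannot be told apart.

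Zona pellucida genes and the growth factor Gdf9 were called higher in neonatal ovary. Of the 9 genes of this list, 5 were called higher and 0 lower, with a median log2 ratio of 2.43. All 3 zona genes on the list were at the floor in neonatal testis. In neonatal ovary Zp2 had a signal of 1969 (at least 26.1-fold higher), Zp3 had 1509 (at least 20.05-fold) and Zp1 had 771 (at least 10.2-fold). Gdf9, the growth factor that oocytes send to granulosa cells, had 1065 in ovary and 138 in testis, 7.70-fold higher. Its partner Bmp15 was at the floor in both gonads, as was Oosp2, an oocyte-secreted protein gene, and Oosp1 had 81.4 in ovary against the floor in testis. Astl, the egg protease that cleaves a zona protein after fertilization, had 242 in ovary and 80.4 in testis, below the limit. Kit, the receptor by which oocytes read the ligand of granulosa cells, had 1861 in ovary and 345 in testis, 5.40-fold higher. A further Kit probe set had 97.1 in ovary and was at the floor in testis. Kit also marks mast cells, and 4 of 10 mast cell genes (40%, beside 1.4% of all genes) were called higher, Kit among them. That list was drawn up after the values were seen, and its summed signal was 8066 in ovary and 1597 in testis. Cpa3, a mast cell protease, had 1555 in ovary and 178 in testis, and Fcer1a, Ms4a2 and Tpsab1 were at the floor in both. The part of such cells in the Kit signal was not tested.

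Genes for proteins that the egg stores for the embryo were already visible on day 1. Of 20 measured, 9 were called higher and 0 lower, with a median log2 ratio of 1.67. Dppa3, a chromatin protein that protects the maternal genome, had 4911 in neonatal ovary and was at the floor in neonatal testis, at least 65.2-fold higher. Padi6 had 3747 in ovary and was at the floor in testis, at least 49.8-fold higher. The subcortical maternal complex, an assembly under the egg membrane, was represented by several members. Nlrp5 had 2445 in ovary and was at the floor in testis. Ooep had 1621 in ovary and 190 in testis, 8.51-fold higher, and Tle6 had 2314 in ovary and 466 in testis, 4.97-fold higher. Khdc3, a further member, had 167 in ovary and was at the floor in testis, and was not called. Nlrp4f (1652 in ovary and 76.3 in testis) and Nlrp14 (1108 in ovary and the floor in testis) belong to the same protein family as Nlrp5. Btg4, which helps to clear maternal messenger RNA, had 313 in ovary and Oas1e had 318, and both were at the floor in testis. Other store genes were not separated. Zar1 had 277 in ovary and 170 in testis, and Mos, the kinase of metaphase arrest, and Omt2a were at the floor in both. Over the 3 oocyte lists, 20 of 39 genes (51.3%) were called higher against 1.4% of all genes, and 0 were called lower. Their median log2 ratio was 2.01.

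**Figure D2:**
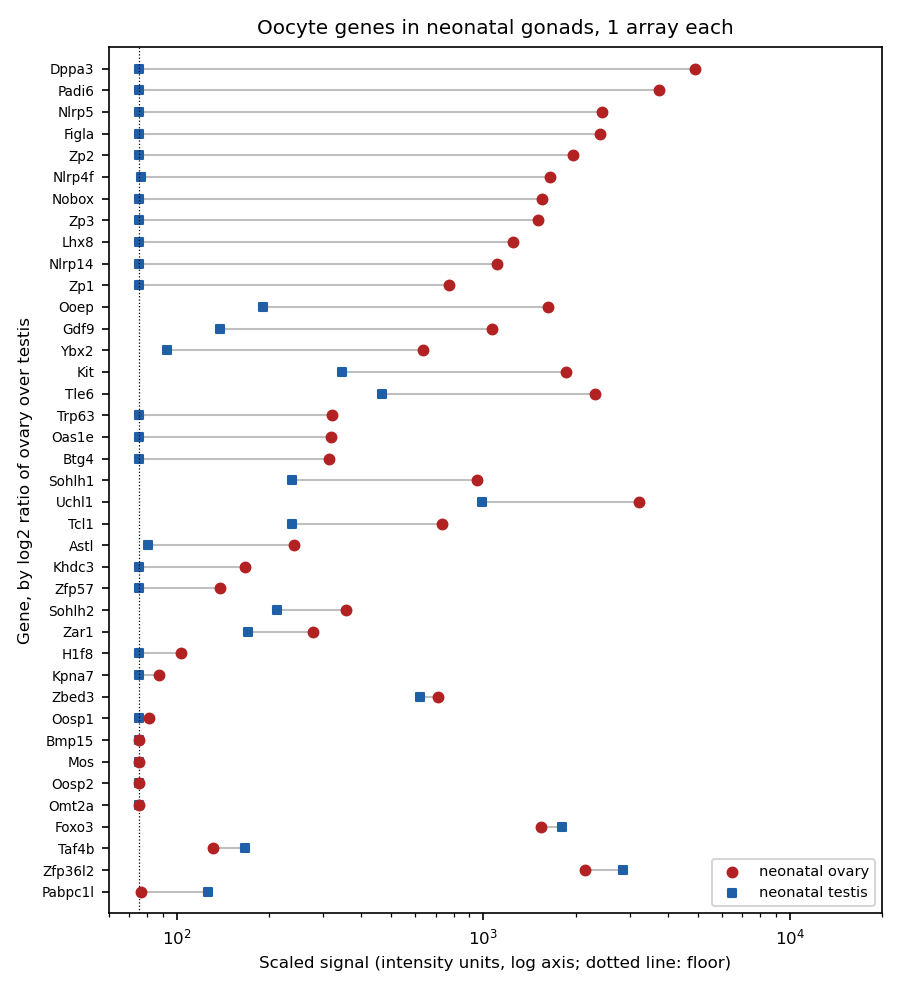
Scaled signal (horizontal, log axis, intensity units) of the 39 oocyte list genes in neonatal ovary (circles) and neonatal testis (squares), 1 array each, in order of the log2 ratio; the dotted line is the floor of 75.3. The testis squares of Dppa3, Padi6, Nlrp5, Figla and Zp2 sit on the floor while their ovary signals lie between 1969 and 4911, and the genes at the bottom are equal or slightly lower in ovary.

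Genes of meiotic prophase gave a mixed picture. Of 14 genes of the synaptonemal complex and chromosome axis, which hold paired chromosomes together, 4 were called higher in neonatal ovary and 0 lower. That share of 28.6% stands beside 1.4% of all genes. The median log2 ratio was 0.06, and it was -0.05 with the signals as deposited and -0.04 with the same median. Smc1b, a meiotic cohesin, had 1068 in neonatal ovary and 135 in neonatal testis, 7.90-fold higher. Sycp3, a core axis protein, had 3051 in ovary and 481 in testis, 6.35-fold higher. Rec8, the cohesin that keeps sister chromatids joined through the long arrest, had 392 in ovary and was at the floor in testis, and Syce1 had 953 in ovary and 217 in testis. Other axis genes were not called. Stag3 had 311 in ovary and 288 in testis, Sycp2 had 140 in ovary and 152 in testis, and Tex12 had 162 in ovary and 452 in testis. None of 15 recombination genes was called, with a median log2 ratio of 0.07. Dmc1, the meiotic strand exchange protein, had 119 in ovary and 97.8 in testis, and Spo11, which makes the breaks, had 96.5 in ovary and 80.4 in testis. Of 6 genes of meiotic entry, Rec8 was called higher and Gata4 lower, and Stra8, the gatekeeper of entry, was at the floor in ovary and had 178 in testis. Of 13 genes of oocyte arrest and its signalling 1 was called higher, the adhesion gene Cdh1 (1518 in ovary and 243 in testis), which epithelia use as well. Wee2, an oocyte kinase that maintains arrest, had 273 in ovary against the floor in testis, and Gpr3 and Pde3a were at the floor in both.

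Most genes common to germ cells of both sexes were not called. Ddx4, an RNA helicase of the germline, had 872 in neonatal ovary and 1206 in neonatal testis, and Dazl, an RNA-binding protein, had 893 in ovary and 1615 in testis. Neither was called. Mael, which acts in transposon silencing, had 1838 in ovary and 1424 in testis. Of the 12 genes on this list, 3 (25%, beside 1.4% of all genes) were called higher and 0 lower, with a median log2 ratio of 0.22. The 3 were Dppa3, Sycp3 and Elavl2, of which Dppa3 also stands on an oocyte list and Sycp3 among the axis genes. Elavl2, an RNA-binding protein, had 1428 in ovary and 161 in testis, but none of its 4 other probe sets above the floor passed the limit. The most different of these had 106 in ovary and 111 in testis. With the mean of a gene's probe sets 2 genes of the list were called higher. Markers of elongating spermatids, which the newborn testis lacks, gave no call among 11 measured, and 9 of these were at the floor in both gonads.

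Signals that keep primordial follicles dormant or alive were for the most part not called. Of 15 genes of Kit and phosphoinositide 3-kinase signalling 1 (6.67%, beside 1.4% of all genes), Kit itself, was called higher and 0 lower. The median log2 ratio was 0.01, and it was -0.21 with the signals as deposited, -0.18 with the same median and -0.05 without probe sets that can cross-hybridize. Kitl, the ligand of Kit, had 2216 in ovary and 3169 in testis. Cdkn1b, a cell cycle inhibitor that restrains follicle activation, had 1285 in ovary and 459 in testis, below the limit, and Akt1 had 2047 in ovary and 2240 in testis. Of 16 genes of survival and apoptosis 1 (6.25%, beside 1.4% of all genes), Trp63, was called higher. Pmaip1, a death-promoting partner of the Bcl2 family, had 133 in ovary and 428 in testis, and Mcl1, a survival factor, had 5471 in ovary and 4057 in testis.

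Pre-granulosa genes split into both directions. Of 23 measured, 4 were called higher in neonatal ovary and 6 lower (17.4% and 26.1%, beside 1.4% and 0.962% of all genes), with a median log2 ratio of 0.96. The genes called higher include known markers of the supporting cells of the early ovary. Foxl2, the transcription factor that maintains ovarian identity, had 878 in neonatal ovary and 142 in neonatal testis, 6.20-fold higher. Rspo1, a secreted amplifier of Wnt signals that is needed for ovary formation, had 1654 in ovary and 251 in testis, 6.59-fold higher. Irx3, an Iroquois homeobox factor of pre-granulosa cells, had 873 in ovary and 86.4 in testis, 10.1-fold higher, and Gng13, a G protein subunit, had 776 in ovary and 101 in testis, 7.70-fold higher. Wnt4, Fst and Bmpr1b leaned the same way below the limit. Wnt4, the ovarian Wnt ligand, had 1275 in ovary and 406 in testis, and Fst, the activin-binding follistatin, had 512 in ovary and 148 in testis. Of the 6 genes called lower, Hsd17b1, Inhbb, Inhba, Inha and Fshr are used by granulosa cells of growing follicles, and all of these but Inhba stand on the Sertoli list as well. The other was the homeobox gene Lhx9, which had 633 in ovary and 2606 in testis, 4.12-fold lower. None of the 3 other Lhx9 probe sets above the floor passed the limit. The most different of these had 127 in ovary and 420 in testis. With the mean of a gene's probe sets 5 genes of the list were called lower. Esr2, the estrogen receptor of granulosa cells, was at the floor in both gonads, and Amhr2, the receptor of anti-Müllerian hormone, had 3778 in ovary and 4101 in testis.

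Wnt signalling was the signalling list with the most genes called higher, and also the one with the most genes measured. Of 34 measured genes 7 (20.6%, beside 1.4% of all genes) were called higher and 0 lower, with a median log2 ratio of 0.74. Among ligands and their amplifiers, Rspo3 had 959 in neonatal ovary and Rspo2 had 409, both at the floor in neonatal testis, at least 12.7-fold and 5.43-fold higher. Wnt11 had 610 in ovary and 109 in testis, 5.59-fold higher. Secreted inhibitors were called as well. Sfrp2 had 1683 in ovary and 326 in testis, and Dkk2 had 412 in ovary and was at the floor in testis. Among genes that Wnt signals commonly induce, Nkd1 had 490 in ovary and 111 in testis and was called, although another Nkd1 probe set had 102 in ovary against the floor in testis. Axin2 had 710 in ovary and 213 in testis, Nkd2 had 991 in ovary and 283 in testis and Notum had 303 in ovary and 85.8 in testis, all below the limit. The intracellular effector Ctnnb1 had 8566 in ovary and 9021 in testis, and Wnt6 had 938 in ovary and 2238 in testis. With the signals as deposited 6 were called higher, with arrays set to the hybridization controls 12, and with the floor at the 75th percentile 2.

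Notch signalling, which acts between germ cells and pre-granulosa cells when nests break up, gave no call among 17 genes. The ligands Jag1 (951 in ovary and 553 in testis) and Jag2 (433 in ovary and 205 in testis) were on the side of ovary by less than the limit, and the receptor Notch2 had 992 in ovary and 1343 in testis. Another Jag2 probe set passed the limit, with 399 in ovary and 89.8 in testis. Among 18 neurotrophin and growth factor genes of follicle assembly 1 (5.56%, beside 0.962% of all genes) was called lower, the neurotrophin Ntf5. It had 149 in ovary and 855 in testis, 5.75-fold lower. Its receptor Ntrk2 had 1369 in ovary and 660 in testis.

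Epithelial genes had the largest share of calls of any list used. Of 29 genes of the ovarian surface, the reproductive ducts and the oviduct 22 (75.9%, beside 1.4% of all genes) were called higher in neonatal ovary. None was called lower, and the median log2 ratio was 2.64. The keratins, which form the filaments of epithelial cells, were all on the side of ovary. Krt19 had 3556 in neonatal ovary and 190 in neonatal testis, 18.7-fold higher, and Krt7 had 2163 in ovary and 248 in testis, 8.71-fold higher. Genes of the mesothelium-like ovarian surface included Upk3b, with 4501 in ovary and 468 in testis (9.62-fold), Msln, with 1051 in ovary and 190 in testis (5.54-fold), and Muc16, with 659 in ovary and the floor in testis. Genes better known from ducts and the oviduct were called as well. Wfdc2, a secreted protease inhibitor, had 2031 in ovary and 95.6 in testis, 21.2-fold higher. Ovgp1, the oviduct glycoprotein, had 1961 in ovary and 75.6 in testis, and Pax8, a factor of Müllerian duct epithelium, had 437 in ovary and 100 in testis. The junction genes Cldn7 (697 in ovary and 82.2 in testis) and Epcam (1010 in ovary and 209 in testis) were called, while a further Epcam probe set had 413 in ovary and 353 in testis. Foxj1, the factor that switches on motile cilia, was at the floor in both gonads, and Elf3, Spint1 and Spint2 were not called.

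Some markers of tissues that are not gonad were called higher in neonatal ovary beside the epithelial genes, though most members of each list were not called. The muscle, neuron, cilia, Hox, kidney and adipose lists were drawn up after values had been seen and describe these arrays only. Of 25 skeletal muscle genes 7 were called higher and 0 lower, with a summed signal of 8927 in neonatal ovary and 2845 in neonatal testis. Acta1, skeletal muscle actin, had 1310 in ovary and 163 in testis, and the myosin genes Myl1 (962 in ovary) and Myh8 (947 in ovary) were at the floor in testis, while the defining factors Myod1 and Myog were at the floor in both. Of 18 neuronal genes 7 were called higher and 1 lower, with a summed signal of 11887 in ovary and 2223 in testis. Nefm, a neurofilament subunit, had 5651 in ovary and 255 in testis, 22.1-fold higher, and Th, the enzyme of catecholamine synthesis, had 370 in ovary and was at the floor in testis, with Snap25, Elavl4 and Isl1 at the floor in both. Of 14 genes of motile cilia 6 were called higher, with a summed signal of 5676 in ovary and 1174 in testis. Of 33 Hox genes, which mark position along the body, 7 were called higher and 0 lower, with a summed signal of 13796 in ovary and 9176 in testis, and 3 of the 7 (Hoxa9, Hoxa10 and Hoxa11) stand on the epithelial list too. Hoxb5 (791 in ovary) and Hoxa5 (753 in ovary) were at the floor in testis, and Hoxd9 had 1374 in ovary and 3612 in testis. Another Hoxa5 probe set had 413 in ovary and 115 in testis, below the limit. Another Hoxa9 probe set had 212 in ovary and 122 in testis, also below it. Of 12 kidney and Wolffian duct genes 2 were called higher, Cdh16 and Calb1, with a median log2 ratio of 0 and a summed signal of 2929 in ovary and 1240 in testis. Of 7 adipose genes 1 was called higher, the fatty acid binding protein gene Fabp4, with 998 in ovary and 141 in testis. The adipose median was 0, and the summed signal of 5342 in ovary was below the 6160 in testis. The share called higher was 28% for skeletal muscle, 38.9% for neuron, 42.9% for motile cilia and 21.2% for Hox. It was 16.7% for kidney and 14.3% for adipose, beside 1.4% of all genes. The counts depended on the floor. With the floor at the 75th percentile of all signals, the genes called higher were 0 for skeletal muscle, 3 for neuron, 1 for motile cilia, 1 for Hox, 0 for kidney and 0 for adipose. With the signals as deposited 4 neuronal genes and 5 Hox genes were called higher. What part tissue beside the ovary had in the epithelial calls was not tested.

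**Figure D3:**
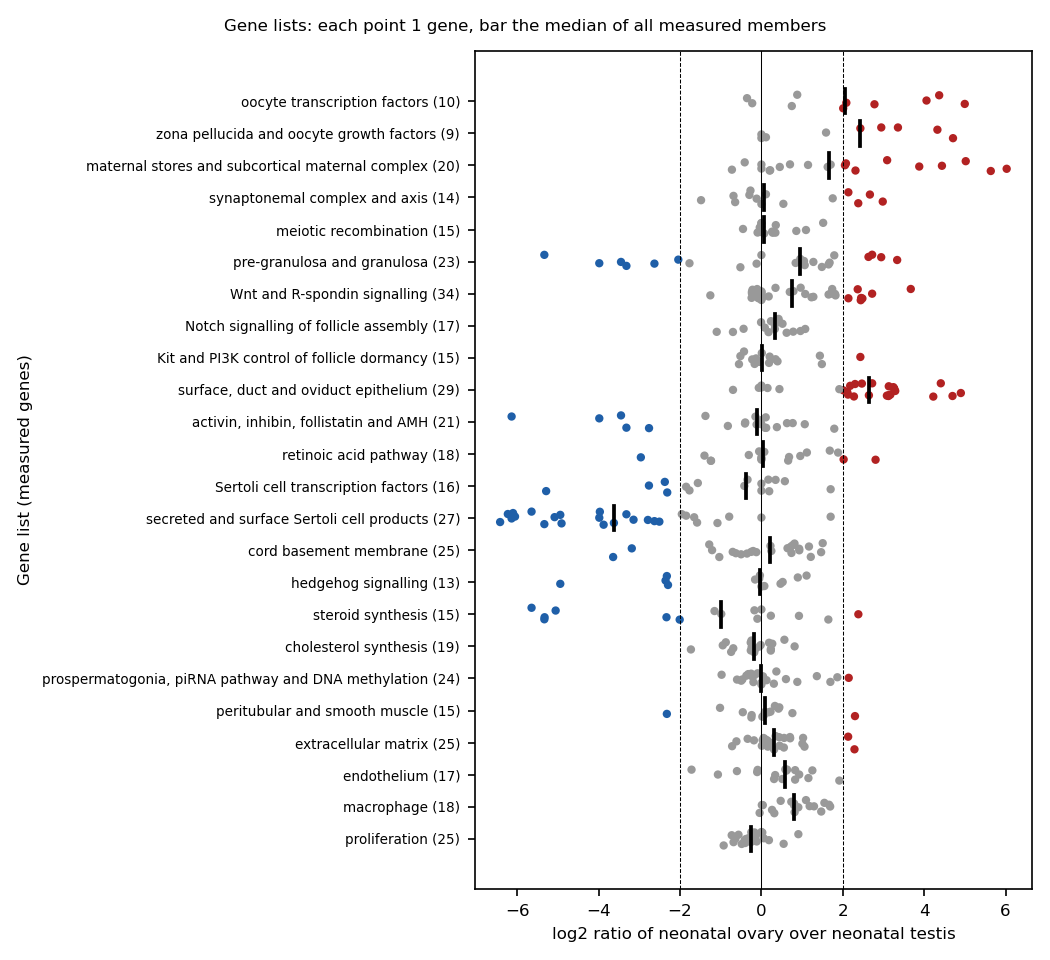
Log2 ratio of neonatal ovary over neonatal testis (horizontal) for the measured genes of the gene lists, 1 point per gene, with a bar at each list's median over all measured members. Epithelium and oocyte lists lie to the right of 0, with medians of 2.64 and between 1.67 and 2.43, the list of Sertoli products lies to the left with a median of -3.62, and the other lists shown have medians between -0.99 and 0.96.

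On the side of the testis, the list of Sertoli cell products had the largest share of calls. Of 27 secreted and surface products 19 (70.4%, beside 0.962% of all genes) were called lower in neonatal ovary and 0 higher, with a median log2 ratio of -3.62. Amh, anti-Müllerian hormone, was at the floor in neonatal ovary and had 5304 in neonatal testis, at least 70.5-fold lower. Cst9, a cystatin of fetal Sertoli cells, had 98.8 in ovary and 7425 in testis, 75.1-fold lower, and the related Cst12 had 1256 in ovary and 11092 in testis, 8.83-fold lower. The inhibin and activin subunits were all lower. Inha had 1059 in ovary and 10554 in testis (9.97-fold lower), Inhbb had 270 in ovary and 4279 in testis (15.8-fold) and Inhba had 192 in ovary and 2101 in testis (10.9-fold). Over the 21 genes of activin, inhibin, follistatin and anti-Müllerian hormone signalling 5 (23.8%, beside 0.962% of all genes) were called lower and 0 higher. The fifth, besides Amh and these subunits, was Fstl3, an activin-binding protein with 75.8 in ovary and 514 in testis. Fshr, the receptor of follicle-stimulating hormone, had 79.0 in ovary and 489 in testis, 6.18-fold lower. Further secreted products included Serpina5, a protease inhibitor that was at the floor in ovary and had 2551 in testis. Tesc, a calcium-binding protein, had 416 in ovary and 5126 in testis, 12.3-fold lower, and Aard had 1096 in ovary and 7576 in testis. Clu and Ptgds, 2 abundant secreted products, were lower by less than the limit, with 4414 and 1644 in ovary against 13874 and 5924 in testis. Another Ptgds probe set passed the limit, with 386 in ovary and 2706 in testis. Gdnf, the Sertoli factor that sustains spermatogonial stem cells, was at the floor in ovary and had 292 in testis, at least 3.88-fold lower and not called. Fgf9, a fetal male signal, went the other way with 253 in ovary and 77.8 in testis.

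Fewer of the transcription factors that specify Sertoli cells passed the limit. The list also holds Ptgds and Fgf9, which are not transcription factors. Of its 16 measured genes 4 (25%, beside 0.962% of all genes) were called lower and 0 higher, with a median log2 ratio of -0.38. With arrays set to the hybridization controls 2 were called lower and the median was 0, and with the floor at the 25th percentile 6 were called lower. Dmrt1, a factor of Sertoli and male germ cells, was at the floor in neonatal ovary and had 2945 in neonatal testis, at least 39.1-fold lower. Nr5a1, the steroidogenic factor, had 522 in ovary and 3543 in testis, 6.79-fold lower. Sox9, the central Sertoli factor, had 80.6 in ovary and 418 in testis, 5.18-fold lower. Gata4 had 522 in ovary and 2595 in testis, 4.97-fold lower, and a further Gata4 probe set was at the floor in ovary and had 228 in testis. Sry, whose action is over by birth, was at the floor in both gonads. Wt1, which both supporting lineages use, had 3291 in ovary and 2206 in testis, and Sox8 was at the floor in ovary and had 95.3 in testis. Over both Sertoli lists 23 of 41 genes (56.1%) were called lower and 0 higher, and the median log2 ratio was -2.51.

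**Figure D4:**
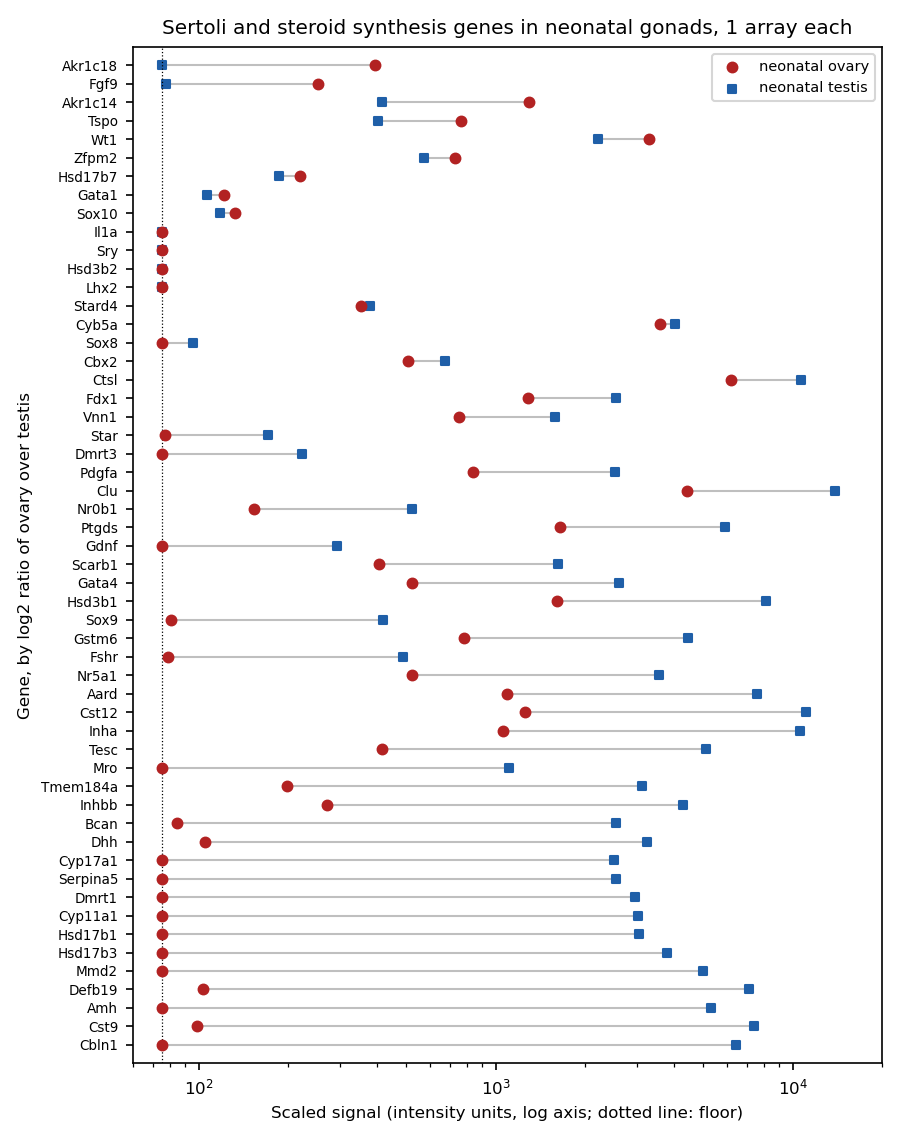
Scaled signal (horizontal, log axis, intensity units) of the Sertoli list and steroid synthesis genes in neonatal ovary (circles) and neonatal testis (squares), 1 array each, in order of the log2 ratio; the dotted line is the floor of 75.3. Cbln1, Amh, Mmd2, Hsd17b3 and Cyp11a1 are at the floor in ovary with testis signals between 3025 and 6451, and Akr1c18 and Fgf9 lie on the side of ovary.

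Hedgehog signalling showed a called ligand together with called targets. Dhh, the ligand made by Sertoli cells, had 105 in neonatal ovary and 3240 in neonatal testis, 30.7-fold lower, while its other probe set was at the floor in ovary and had 184 in testis. Ptch1, the receptor that the pathway induces, had 708 in ovary and 3543 in testis, a log2 ratio of -2.32. Gli1, a transcription factor that is itself a target, had 116 in ovary and 595 in testis, 5.12-fold lower, and Hhip, an inhibitor induced by the signal, was at the floor in ovary and had 370 in testis. Another Hhip probe set was at the floor in ovary and had 102 in testis. These were the 4 of 13 genes called lower (30.8%, beside 0.962% of all genes), and 0 were called higher. The other genes of the pathway were not called, with Smo at 1571 in ovary and 1612 in testis and Gli2 at 474 in ovary and 527 in testis, and the list median was -0.04. With arrays set to the hybridization controls that median was 0.32 and 1 gene was called lower.

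The structural genes of the cords mostly did not separate the gonads. Of 25 basement membrane genes 2 (8%, beside 0.962% of all genes) were called lower and 0 higher, with a median log2 ratio of 0.22. Lamc3, a laminin chain, was at the floor in neonatal ovary and had 685 in neonatal testis, at least 9.09-fold lower. Col4a4, a collagen chain, had 132 in ovary and 1648 in testis, 12.5-fold lower, but a further Col4a4 probe set was at the floor in ovary and had 114 in testis. Lama5 (554 in ovary and 195 in testis) and Agrn (2667 in ovary and 964 in testis) leaned toward ovary below the limit. Of 16 tight and gap junction genes 1 (6.25%, beside 1.4% of all genes), Cldn3, was called higher, and it also belongs to the epithelial list. Gja1, the gap junction protein of Sertoli and granulosa cells, had 2314 in ovary and 7846 in testis, 3.39-fold lower. Its 5 other probe sets above the floor disagreed. Of these, 3 were lower in ovary past the limit, and 1 went the opposite way, with 293 in ovary and 138 in testis.

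Enzymes at successive steps of steroid synthesis were called lower in neonatal ovary. Of 15 genes 6 (40%, beside 0.962% of all genes) were called lower and 1 higher, with a median log2 ratio of -0.99. Cyp11a1, which cleaves the side chain of cholesterol in the opening step, was at the floor in neonatal ovary and had 3025 in neonatal testis, at least 40.2-fold lower. Cyp17a1, which makes the androgen precursors, was at the floor in ovary and had 2505 in testis, at least 33.3-fold lower. Hsd17b3, the enzyme of the closing step to testosterone, was at the floor in ovary and had 3776 in testis, at least 50.2-fold lower. It also stands on the list of Sertoli cell products and is counted there too. Hsd3b1, a dehydrogenase of the middle steps, was detected in both, with 1615 in ovary and 8134 in testis, 5.04-fold lower. Scarb1, a receptor for lipoprotein cholesterol, had 404 in ovary and 1624 in testis, at the limit with 4.02-fold, and another probe set had 464 in ovary and 1359 in testis. Star, which carries cholesterol into mitochondria, had 77.1 in ovary and 171 in testis and was not called. The gene called higher was Akr1c18, a reductase that inactivates progesterone, with 393 in ovary and the floor in testis. Akr1c14, a reductase of the same family, had 1293 in ovary and 414 in testis, below the limit.

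Genes that make cholesterol, the substrate of these enzymes, were not called. None of 19 reached the limit, and the median log2 ratio of -0.18 became 0.30 with arrays set to the hybridization controls. Fdps, which makes farnesyl pyrophosphate, had 571 in ovary and 1896 in testis, 3.32-fold lower, and Sqle had 1022 in ovary and 1154 in testis. On the wider Leydig cell list 4 of 11 genes (36.4%, beside 0.962% of all genes) were called lower and 0 higher. All 4 of them are steroid enzymes named above, and Hsd17b3 among them is also counted with the Sertoli products. Pdgfra, the growth factor receptor of Leydig progenitors, had 1675 in ovary and 4186 in testis, and Igf1 had 4806 in ovary and 5618 in testis. Adrenal markers were low in both gonads. The 5 measured had a summed signal of 436 in ovary and 486 in testis, and Cyp11b1 and Cyp11b2, the defining enzymes of the adrenal cortex, were at the floor in both.

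Genes of the male germ line gave few calls. Of 24 genes of prospermatogonia, the piRNA pathway and DNA methylation, 0 were called lower in neonatal ovary and 1 higher, with a median log2 ratio of 0.00. The gene called higher was Gtsf1, a piRNA pathway factor, with 4152 in neonatal ovary and 938 in neonatal testis, 4.42-fold higher, and a further probe set had 1732 in ovary and 409 in testis. Piwil2, a piRNA-binding protein, had 1005 in ovary and 545 in testis, and Piwil4, its nuclear counterpart, was at the floor in ovary and had 148 in testis. Dnmt3l, which directs methylation in male germ cells, was at the floor in ovary and had 106 in testis. Of 23 genes of the spermatogonial niche and stem cells 2 (8.70%, beside 0.962% of all genes) were called lower, Dmrt1 and Sall4. Sall4, a zinc finger factor of stem cells, had 91.0 in ovary and 855 in testis, 9.40-fold lower, while another probe set was at the floor in ovary and had 118 in testis. The 3 called higher (13.0%, beside 1.4% of all genes), Kit, Cdh1 and Sohlh1, also stand on other lists. The receptors Ret (91.4 in ovary and 237 in testis) and Gfra1 (171 in ovary and 407 in testis) were lower by less than the limit. Among 17 pluripotency genes Sall4 and Dppa4 were called lower (11.8%, beside 0.962% of all genes). Dppa4 had 213 in ovary and 857 in testis, and Nanog and Sox2 were at the floor in both.

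Hormone and retinoid pathways were called at a few points. Esr1, the estrogen receptor, had 2744 in neonatal ovary and 633 in neonatal testis, 4.33-fold higher, and a further probe set had 425 in ovary and 138 in testis. Pgr, the progesterone receptor, had 431 in ovary and was at the floor in testis, at least 5.73-fold higher. These were the 2 of 16 nuclear receptor genes called higher (12.5%, beside 1.4% of all genes). Nr5a1 was the 1 called lower (6.25%, beside 0.962%). With the signals as deposited or with the same median, 1 was called higher and 2 lower. In the retinoic acid pathway Aldh1a2, which makes retinoic acid, had 2156 in ovary and 531 in testis, 4.06-fold higher, close to the limit. Crabp1, which binds it in the cytoplasm, had 1385 in ovary and 198 in testis, 6.99-fold higher. Cyp26b1, the enzyme that degrades retinoic acid in the male gonad, was at the floor in ovary and had 587 in testis, at least 7.79-fold lower. The 15 other genes on that list of 18 were not called. The shares were 11.1% called higher and 5.56% called lower, beside 1.4% and 0.962% of all genes. With the signals as deposited or with the same median, 1 retinoid gene was called each way.

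Few growth and cell cycle genes were called. None of 25 proliferation genes was called, and their median log2 ratio of -0.26 became 0.17 with arrays set to the hybridization controls. Of the imprinted and insulin-like growth factor genes 2 of 19 (10.5%, beside 1.4% of all genes) were called higher. Igfbp2, a binding protein of these growth factors, had 2997 in neonatal ovary and 427 in neonatal testis, 7.01-fold higher, and Cdkn1c, an imprinted cell cycle inhibitor, had 3801 in ovary and 948 in testis. The growth factor Igf2 itself had 8286 in ovary and 4758 in testis. Ccnd1, a cyclin of the early cycle, had 1625 in ovary and 455 in testis, and Ccnd2 had 5533 in ovary and 9109 in testis, while another Ccnd2 probe set was at the floor in ovary and had 447 in testis. Of 23 glutathione transferases 3 (13.0%, beside 0.962% of all genes) were called lower. Gsta2 had 81.1 in ovary and 1970 in testis, 24.3-fold lower, and Gsta3 had 163 in ovary and 844 in testis with another probe set at 144 in ovary and 161 in testis. Housekeeping genes gave 0 calls of 10, with a median log2 ratio of 0.05 that became -0.17 with the signals as deposited and -0.13 with the same median. Actb, the actin gene among them, had 7869 in ovary and 3919 in testis, and another of its probe sets had 1811 in ovary and 2141 in testis.

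Markers of other cells common to both gonads gave almost no calls. None of 18 macrophage genes was called, but 17 of them were on the side of ovary, with a median log2 ratio of 0.81 (0.58 with the signals as deposited) and a summed signal of 13116 in neonatal ovary and 7317 in neonatal testis. Of 17 endothelial genes none was called, with a summed signal of 11562 in ovary and 8717 in testis. Of 25 extracellular matrix genes 2 (8%, beside 1.4% of all genes) were called higher. Postn, a matrix protein of growing connective tissue, had 7770 in ovary and 1773 in testis, and Mfap5, a microfibril protein, had 1457 in ovary and 298 in testis. The list of peritubular and smooth muscle genes gave 1 call each way among 15 (6.67% each, beside 1.4% and 0.962% of all genes). Synpo2 was called higher with 401 in ovary and 81.5 in testis, but another of its probe sets had 129 in ovary against the floor in testis. With the mean of a gene's probe sets 0 of the list were called higher. The gene called lower was Ptch1, the hedgehog receptor named above. Acta2, smooth muscle actin, had 8769 in ovary and 8626 in testis. Red blood cell genes gave 0 calls of 10, and Hba-a1 and Hba-a2 were at the floor in both. Of 7 Y-linked genes Uba1y and Eif2s3y were called lower.

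Several of the genes with the largest ratios belong to none of these lists. Moxd1, a monooxygenase-like protein, had 4237 in neonatal ovary and 95.4 in neonatal testis, 44.4-fold higher. Xdh, xanthine dehydrogenase, had 1911 in ovary and 80.2 in testis, 23.8-fold higher. Tnfrsf19, a member of the tumor necrosis factor receptor family, had 2593 in ovary and 110 in testis, but its other probe set above the floor had 77.0 in ovary and was at the floor in testis. Bzw2 had the largest ratio of genes above the floor in both, with 13269 in ovary and 118 in testis, and its other probe set went the opposite way, with 381 in ovary and 538 in testis. On the side of testis, Acsbg1, an acyl-CoA synthetase, had 99.7 in ovary and 2230 in testis, 22.4-fold lower. Pak3, an X-linked protein kinase, had 100 in ovary and 1631 in testis, 16.3-fold lower, and Exoc3l2 had 143 in ovary and 2005 in testis. The uncharacterised transcripts 4930562C15Rik and 4930550L24Rik were each at the floor in a single gonad, the one with 1634 in ovary and the other with 2102 in testis. The X chromosome held 618 of the genes measured (3.40%), 10 of those called higher (3.94%) and 8 of those called lower (4.57%).

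The same genes were then followed at the other ages, whose ratios use other arrays. At the fetal age 35 genes (0.192%) were called higher in ovary and 80 (0.44%) lower, and at the adult age 2166 (11.9%) were called higher and 1980 (10.9%) lower. Of the 254 genes called higher in neonatal ovary, 13 were also called higher in fetal ovary, which is 5.12% of the neonatal and 37.1% of the fetal genes. With the adult gonads 57 were shared, 22.4% of the neonatal and 2.63% of the adult genes, and 187 (73.6%) were called higher at neither other age. Of the 175 genes called lower, 47 were also called lower in fetal ovary, 26.9% of the neonatal and 58.8% of the fetal genes. In adult ovary 20 were also called lower, 11.4% of the neonatal and 1.01% of the adult genes. That 11.4% is close to the 10.9% of all genes called lower in adult ovary. The genes called lower at all 3 ages were 9, among them Cst9, Defb19, Dmrt1 and Hsd17b3. The genes called higher at all 3 ages were Irx3, Tnfrsf19 and Xist. In the opposite direction, 39 of the 175 genes lower in neonatal ovary (22.3%) were called higher in adult ovary, beside 11.9% of all genes. Of the 254 genes higher in neonatal ovary, 22 (8.66%) were called lower in adult ovary, beside 10.9% of all genes.

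Most oocyte genes called in neonatal ovary were not called in fetal ovary. Adult counts stand beside 11.9% of all genes called higher and 10.9% called lower in adult ovary. The 3 oocyte lists had 1 of 39 genes called higher and 1 lower in fetal ovary, 20 higher and 0 lower in neonatal ovary, and 19 higher and 2 lower in adult ovary, with median log2 ratios of 0.00, 2.01 and 1.88. Zp3 was at the floor in both fetal gonads, and in ovary it had 1509 at the neonatal and 2126 at the adult age, with testis at the floor throughout. Nobox was at the floor in fetal ovary and had 1556 in neonatal and 264 in adult ovary. Figla had 352, 2405 and 87.0 in fetal, neonatal and adult ovary. Dppa3 differed from these, with 253 in ovary and 1819 in testis at the fetal age, and 685 in ovary against the floor in testis at the adult age. Of the 14 synaptonemal complex and axis genes, 8 were called higher in fetal ovary, 4 in neonatal and 0 in adult ovary, where 11 were called lower. Their median log2 ratios were 2.25, 0.06 and -4.13. The difference between ages was not tested.

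Sertoli and steroid genes that were called were nearly all lower in fetal and neonatal ovary, and they were called in both directions in adult ovary. Of all genes, 11.9% were called higher and 10.9% lower in adult ovary, and the adult counts below stand beside these shares. The Sertoli lists had 15 of 41 genes called lower in fetal ovary, 23 in neonatal and 5 in adult ovary, where 7 were called higher, with median log2 ratios of -1.08, -2.51 and 0.25. Amh was at the floor in fetal and neonatal ovary against 2093 and 5304 in testis, and had 1197 in adult ovary against the floor in testis. The steroid synthesis list had 7 of 15 genes called lower in fetal and 6 in neonatal ovary, with 1 called higher at each of these ages, and in adult ovary 10 were called higher and 1 lower. Cyp17a1 was at the floor in fetal and neonatal ovary against 9438 and 2505 in testis, and had 1999 in adult ovary against 2600 in testis. Epithelial genes were called in quantity at the neonatal age. Of the 29, 1 was called higher in fetal, 22 in neonatal and 5 in adult ovary. Upk3b had 2226 in fetal ovary and 1511 in fetal testis. It had 4501 in neonatal ovary and 468 in neonatal testis, and 765 in adult ovary against the floor in adult testis. Moxd1 had 2535 in fetal ovary and 1335 in fetal testis, and was at the floor in both adult gonads.

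**Figure D5:**
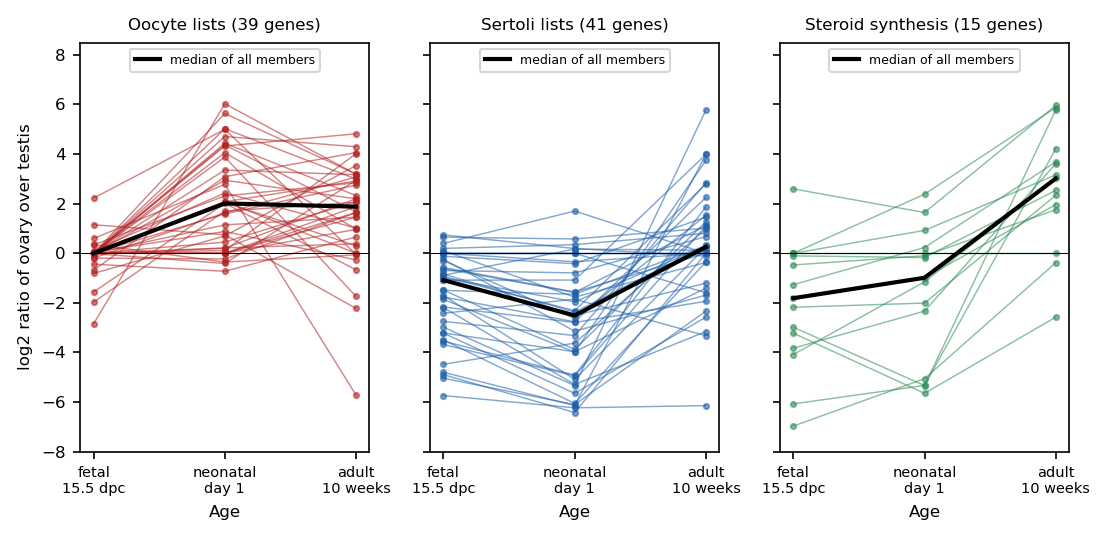
Log2 ratio of ovary over testis (vertical) at 15.5 days postcoitum, on day 1 and at 10 weeks (horizontal) for the oocyte lists (39 genes), the Sertoli lists (41 genes) and the steroid synthesis list (15 genes), 1 line per gene, with a thick line at the median of all members; ratios of genes at the floor are bounds. The oocyte median goes through 0.00, 2.01 and 1.88, the Sertoli median through -1.08, -2.51 and 0.25, and the steroid median through -1.81, -0.99 and 3.02.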

How the data were processed

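Total RNA from each gonad was amplified to biotin-labelled cRNA and hybridized to Affymetrix arrays, per the labels' protocols. The deposited table holds 1 linear intensity for each of 45101 probe sets and each of 6 arrays. The submitters' processing notes name GCOS version 1, without its role. Background correction, probe summary and scaling are not stated in the sources used here, so the error of dim signals is unknown.

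From these values each array was multiplied to a common 2% trimmed mean (factors 0.913 to 1.26), and signals were floored at the median of all scaled signals, 75.3. Of the probe sets, 34958 had 1 symbol (some controls among them), 932 had several and 9160 had none, as did a further 51 of the 64 controls. No control stood for a gene. The probe set with the highest mean signal stood for each of 18193 genes, of which 9010 had 2 or more. The RefSeq table of GRCm38.p6 held 18145 of the symbols and gave chromosomes and promoters. No comparison has a test, since each group has 1 array, which also limits the precision. Genes named are, per direction, the 10 largest ratios above the floor in both gonads, the 10 brightest at the floor on the other side, and list members. The 42 lists hold 718 genes, of which 643 were measured, and some genes stand on several lists. Members and lists were chosen with earlier results of these data known, and 7 further lists after values were seen. Genes of the lists that were not measured are not analysed here. The steps were tested on simulated arrays. Alternatives were the deposited scale, quantile normalization, the same median, hybridization controls, other floors and limits, 16 added in place of a floor, the mean of a gene's probe sets, and leaving out probe sets that may cross-hybridize. Python 3.11.15, numpy 2.4.6, pandas 2.3.3 and matplotlib 3.10.9 were used.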

Additional observations from a re-analysis of the deposited data

Results flagged for a closer look

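Of the genes named above, 13 were called lower in neonatal ovary and called higher in adult ovary. Of 152 named genes called in the neonatal comparison, 25 were called the opposite way in the adult gonads. Of all 175 genes called lower in neonatal ovary 22.3% were called higher in adult ovary, beside 11.9% of all genes. With 1 array per group, the difference between the ages was not tested. The adult log2 ratio of ovary over testis was 5.78 for Hsd17b1, 5.29 for Inhba, 3.75 for Inhbb and 2.84 for Inha, genes of granulosa and Sertoli cells. It was 3.99 for Amh and 2.80 for Gata4. Among genes of steroid synthesis and its control it was 4.21 for Cyp11a1, 3.61 for Hsd3b1, 2.34 for Scarb1 and 2.25 for Nr5a1. It was 4.44 for Pak3, 3.02 for Ptch1 and 2.06 for Acsbg1.

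Another 12 genes were called higher in neonatal ovary and lower in adult ovary, and here too the difference was not tested. Of all 254 genes called higher in neonatal ovary 8.66% were called lower in adult ovary, below the 10.9% of all genes. The meiotic genes Syce1, Sycp3, Smc1b and Rec8 had adult log2 ratios of -6.39, -5.28, -4.89 and -3.90. The germ cell genes Ybx2 and Gtsf1 had -5.72 and -4.35. Genes of cilia were Kif9 with -5.64, Iqca with -3.08 and Cfap54 with -2.84. The others were 4930562C15Rik with -3.14, Cdkn1c with -2.70 and Muc1 with -2.21. Against the fetal age, Dppa3 (-2.84) and Gtsf1 (-2.59) were called lower in fetal ovary, and this difference was not tested either.

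Probe sets without a gene symbol entered no comparison above. Of 9160 such probe sets, 24 (0.262%) had a ratio of 4 or more in the direction of neonatal ovary and 24 in the direction of neonatal testis. One of them had 3659 in neonatal ovary and 449 in neonatal testis, 8.15-fold higher, and another was at the floor in ovary and had 2478 in testis, at least 32.9-fold lower.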

How the results depend on the processing

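Of 152 named genes called in the neonatal comparison, none turned direction under the 9 scalings, floors and probe set rules tried. This was largely set in advance, since called ratios are at least 4 and a change of floor cannot reverse a sign. Of these genes, 132 were called the same way with the signals as deposited, 149 with quantile normalization and 137 with the same median. The number was 140 with hybridization controls and 80 with the floor at the 75th percentile. The count of genes higher in neonatal ovary, 254, was 394 with hybridization controls, 467 and 72 with the floor at the 25th and 75th percentile, 388 with 16 added, and 1055 and 66 at limits of 2 and 8. The count lower, 175, was 98 with hybridization controls, 72 with the floor at the 75th percentile, and 692 and 56 at limits of 2 and 8. With that upper floor the oocyte lists had 11 genes higher, the pre-granulosa list 1 and the epithelium list 12, since more signals lie under it. With the lower floor 1 prospermatogonia gene was called lower. With the signals as deposited the oocyte lists had 16 genes higher and the epithelium list 17. The cause of the other shifts was not tested. Of 39 named called genes with further probe sets above the floor, 17 had all of them called the same way, and 2 (Bzw2 and Elavl2) had 1 of opposite sign. Of 217 list genes that were not called and had further probe sets above the floor, 8 had another past the limit and 65 had 1 or more of opposite sign. No paired analysis was possible because each group has 1 array. Signal over background limits all ratios of genes near the floor.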
